A study of Mus musculus with 7 samples.

Results

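The genes described here are 32 genes that carry fatty acids into muscle, store and release them at lipid droplets and oxidize them in mitochondria. They were chosen by symbol and were all present among the 49568 gene symbols of a count table of mouse gastrocnemius muscle, a calf muscle made mostly of fast fibers. All 32 were among the 14976 genes with enough counts to be tested, so none was lost to the filter on low counts. RNA sequencing of whole muscle was performed on male C57Bl6/J mice at 4 weeks (juvenile, n = 2), 6 weeks (early adolescent, n = 2) and 8 weeks (n = 3), with 1 library per mouse. No agent or altered allele is labelled for the 4-week and 6-week mice. The titles of the 8-week mice alone carry the word Ctl, the study's name for CreER-negative littermates, and the labels do not say whether these mice received tamoxifen. At 8 weeks, therefore, the origin of the mice cannot be told apart from age. The study asked how gene expression in growing muscle differs between these ages.

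Lipoprotein lipase (Lpl) frees fatty acids from circulating lipoproteins at the capillary wall, and the transporters CD36 and FATP1 (Slc27a1) help them cross the cell membrane. Inside the fiber, fatty acids are bound by Fabp3 and activated to acyl-CoA by long-chain synthetases (Acsl genes), then stored as triglyceride in droplets or passed through the carnitine shuttle (Cpt genes) into mitochondria. There the beta-oxidation spiral shortens the chain in a repeated round of 4 steps, and the electrons reach the respiratory chain through NADH and the electron transfer flavoprotein. Slow and oxidative fibers rely on this route more than fast glycolytic fibers do.

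The deposited counts summed to between 30836057 and 41784144 per library. The 32 genes together took 52163 to 79270 of these, or 0.143% to 0.228% of a library. The mitochondrial ribosomal RNA mt-Rnr2 alone took 25.1% to 37.4%. Levels are given as CPM, counts per 1000000 counts of the library. By this measure 9 skeletal muscle markers, among them the fast myosin Myh4, summed to between 70267 and 92083 in each library, and none was at 0. Library totals were adjusted by TMM factors, a scaling in which most genes are taken as unchanged. The 8-week libraries were not alike. Replicate 2 had the lowest mt-Rnr2 share and a TMM factor of 1.05, against 0.888 and 0.854 in 8-week replicates 1 and 3. The factors at 4 and 6 weeks were 1.03 to 1.08, so in this measure 8-week replicates 1 and 3 differed from the rest. Replicate 2 was the highest of the 8-week libraries for 27 of the 32 genes. For the 32 genes, counts of called genes that rest on the 8-week group are therefore given with and without replicate 2. Counts for other gene lists, and counts of genes whose ages did not overlap, are given with it only.

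Expressed per kilobase of exon, so that genes can be compared with each other, the cytosolic carrier Fabp3 had the highest level in 7 of 7 libraries. It averaged 129 CPM per kb at 4 weeks, 117 at 6 weeks and 66.4 at 8 weeks. Cd36 followed with 68.4, 56.9 and 50.4 CPM per kb at 4, 6 and 8 weeks, and then the very-long-chain dehydrogenase Acadvl with 57.7, 54.4 and 43.4. Of the 31 pairs of neighbours in the order of mean levels, 10 had the same gene higher in each of the 7 libraries, among them Fabp3 above Cd36, Acaa2 above Acadm and Acadl above Etfa. For the remaining pairs the order changed between libraries. Without regard to library, 3 of the 10 pairs did not overlap at all: Etfb above Eci2, Acsl3 above Lipe, and Cpt1a above Cpt1b. The places of Etfb and Cpt1b depend on the exon bases counted. The 5 genes with the most counts took 46.2% of the counts of all 32.

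**Figure D1:**
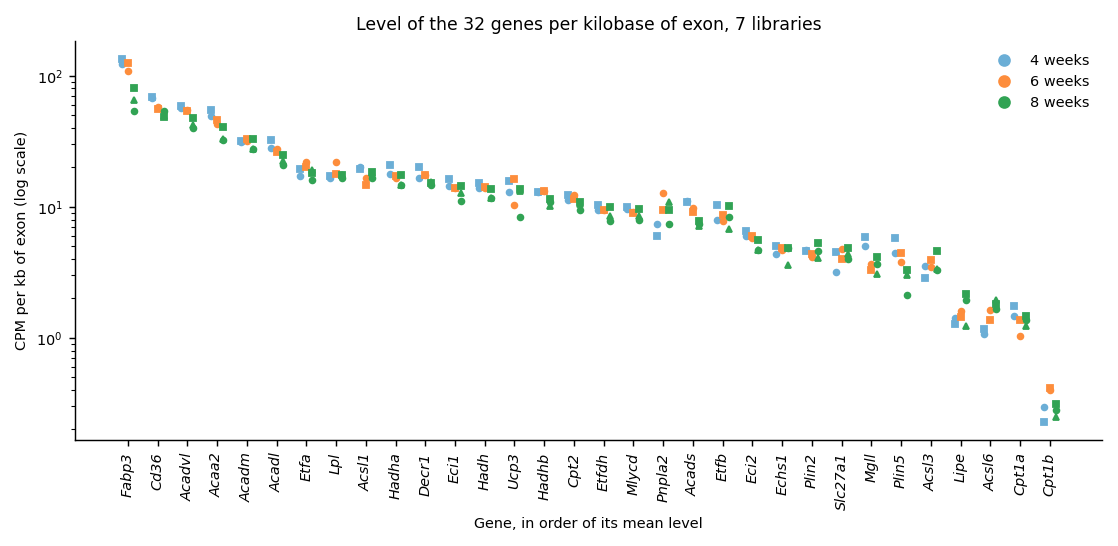
Level of each of the 32 genes in CPM per kilobase of exon (log axis), in order of the mean over 7 libraries, with 4-week libraries in blue, 6-week in orange and 8-week in green (circle, square and triangle for replicates 1, 2 and 3). Fabp3 stood highest, at 129, 117 and 66.4 CPM per kb on average at 4, 6 and 8 weeks, and Cpt1b lowest, at 0.26, 0.41 and 0.28.

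The lowest gene in 7 of 7 libraries, per kb of all exon bases, was Cpt1b, which encodes the muscle form of the enzyme that starts the carnitine shuttle. It had 38 and 29 counts at 4 weeks, 44 and 52 at 6 weeks, and 35, 34 and 26 at 8 weeks, while every other gene of the 32 had at least 165 counts in each library. In the GENCODE M21 annotation (GRCm38), Cpt1b lies on the minus strand of chromosome 15 from 89416405 to 89425863, and 81.4% of its 3372 exon bases are shared with the same-strand gene model Gm44502. Reads that fall on more than 1 gene are left out by the counter's default, so the level of Cpt1b is uncertain. The study's methods do not state whether its annotation held Gm44502. If all counted reads of Cpt1b came from its 628 bases that are not shared, it would average 1.67 CPM per kb, against 0.31 over all its exon bases. At 1.67 it would stand above Cpt1a (1.39), Acsl6 (1.53) and Lipe (1.59) and no longer be the lowest. Etfb, the beta subunit of the electron transfer flavoprotein, shares 58.2% of its exon bases with Gm45233 and Mir7051, and Acsl3 shares 5.6% with Utp14b. If all reads of Etfb came from its 486 bases that are not shared, it would average 20.6 CPM per kb, against 8.59 over all its exon bases. How far these overlaps lower the counts was not tested.

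The comparison of 8 with 4 weeks asked what separates the older muscle from the juvenile one. Of the 32 genes, 9 were lower at 8 weeks than at 4 weeks and 1 was higher. The genes that fell were the carriers Fabp3 and Cd36, the droplet genes Plin5 and Mgll, 4 enzymes of the spiral (Acads, Acaa2, Acadvl and Acadl) and the isomerase Eci2. The gene that rose was the acyl-CoA synthetase Acsl6. The largest fall, in Fabp3, left the mean at 54.7 ± 10.9 CPM at 8 weeks, against 106 ± 6.76 at 4 weeks (SD, n = 3 and 2). Calls were made with edgeR's quasi-likelihood test at a Benjamini-Hochberg adjusted p under 0.05 over all 14976 genes. Thus 28.1% of the 32 genes were called lower, beside 8.95% of all genes tested, and 1 of 32 was called higher, beside 9.53%. In either direction 18.5% of all genes were called. The median log2 fold change of the 32 genes was -0.21, against -0.01 over all genes, and 25 of the 32 values were negative. In whole muscle, fewer cells of a type and less RNA per cell cannot be told apart.

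These counts depended on single libraries. Without 8-week replicate 2, 13 genes were called lower and 1 higher, while the share of all genes called lower was 8.40%. Those added were Hadha, Hadhb, Hadh and Eci1, and all 10 genes of the full set kept their calls. With replicate 2 as the only 8-week library, an alternative added after seeing the data in which it is assumed to vary like the other libraries, 3 were lower (Fabp3, Acads and Cd36) and 3 higher (Acsl6, Lipe and Acsl3), with 5.95% of all genes called lower and 12.6% in either direction. The 4-week libraries also moved the counts. Without 4-week replicate 1, 6 of the 32 genes were called, beside 7.96% of all genes, and without 4-week replicate 2, 3 were (Fabp3, Acads and Acsl6), beside 5.07%. Without 8-week replicate 1, 6 were lower and 2 higher, beside 15.7% of all genes called. Those 3 were called under each of the 16 alternatives computed, with adjusted p no higher than 0.0230 for Fabp3, 0.0366 for Acads and 0.0395 for Acsl6.

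**Figure D2:**
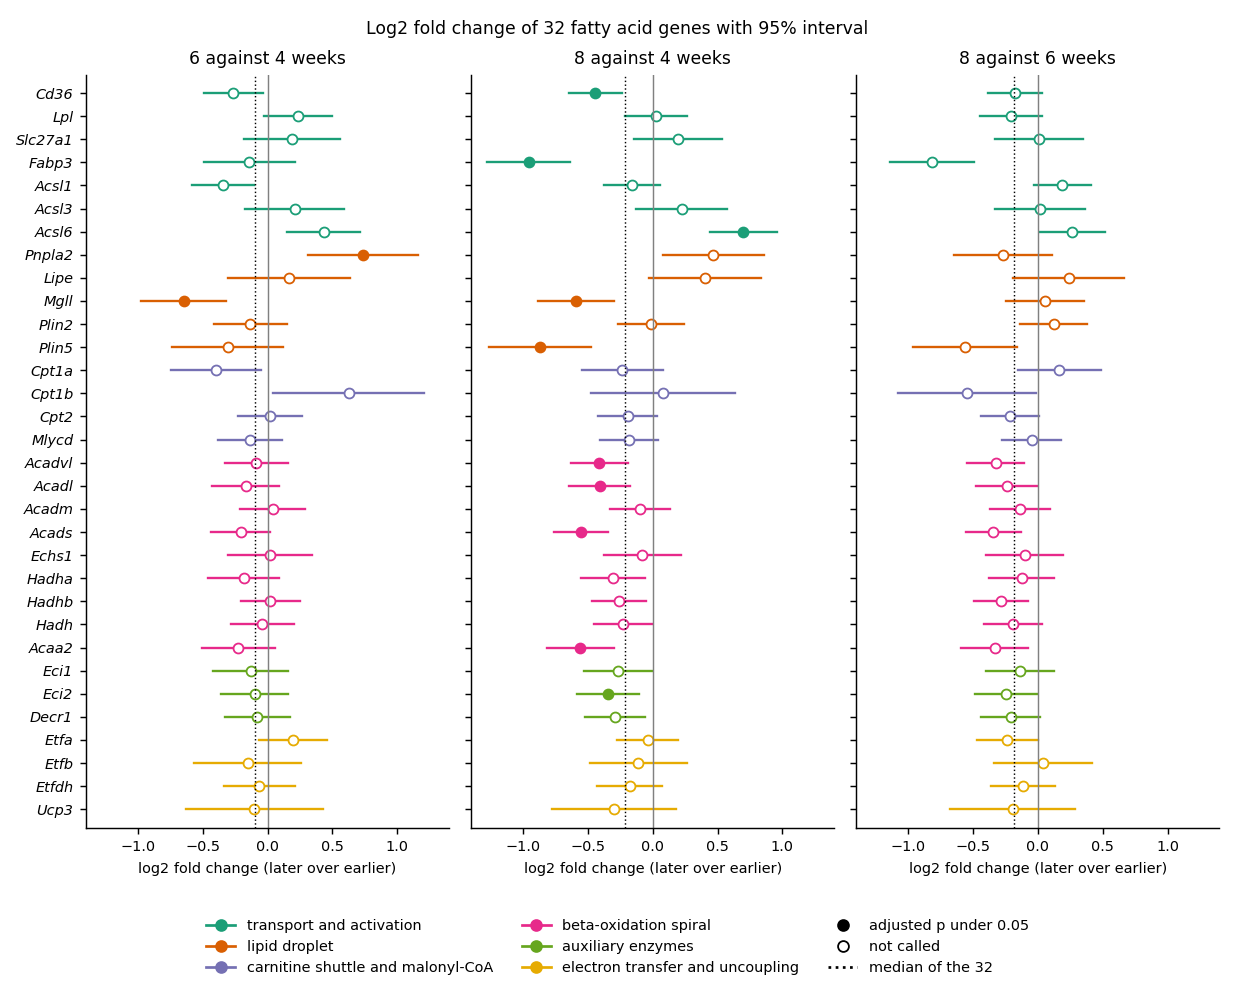
Log2 fold change of the later over the earlier age for each of the 32 genes, with its 95% interval, in the comparisons of 6 with 4, 8 with 4 and 8 with 6 weeks. Filled points passed an adjusted p of 0.05, colours mark the role groups, the grey line is 0 and the dotted line the median of the 32 (-0.09, -0.21 and -0.18). At 8 against 4 weeks 9 filled points lie left of 0 and 1, Acsl6, right of it.

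Among the genes of transport and activation, Fabp3, the cytosolic carrier typical of heart and red muscle, was counted at 101 and 111 CPM at 4 weeks, 89.8 and 103 CPM at 6 weeks, and 44.3, 66.1 and 53.6 CPM at 8 weeks. All 8-week libraries lay below all others, and the 4-week and 6-week libraries overlapped. The log2 fold change was -0.96 at 8 against 4 weeks (SE 0.15, adjusted p = 0.0016) and -0.82 at 8 against 6 weeks (SE 0.15, adjusted p = 0.0564), where it was not called. Cd36, the membrane receptor for long-chain fatty acids of both fibers and capillary endothelium, had 244 and 247 CPM at 4 weeks, 209 and 200 CPM at 6 weeks, and 192, 174 and 177 CPM at 8 weeks. The 3 ages did not overlap. Its log2 fold change was -0.26 at 6 against 4 weeks (adjusted p = 0.148) and -0.44 at 8 against 4 weeks (SE 0.09, adjusted p = 0.0088). Without 4-week replicate 1 or 2 the adjusted p at 8 weeks was 0.0537 or 0.0735.

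Acsl6, a synthetase best known for activating polyunsaturated fatty acids in brain, was the gene that rose. It had 10.6 and 11.5 CPM at 4 weeks, 16.2 and 13.7 CPM at 6 weeks, and 16.6, 17.9 and 19.4 CPM at 8 weeks. Each later age lay wholly above the earlier one. The log2 fold change was 0.43 at 6 against 4 weeks (SE 0.13, adjusted p = 0.0654) and 0.70 at 8 against 4 weeks (SE 0.12, adjusted p = 0.0028). Acsl1, the main synthetase of muscle and far more abundant, did not pass the test. It had 211 and 204 CPM at 4 weeks, 173 and 154 CPM at 6 weeks and 175, 194 and 189 CPM at 8 weeks, lowest at 6 weeks. Lpl, Slc27a1 and Acsl3 were not called in any comparison, with log2 fold changes between -0.21 and 0.23. The Lpl estimate at 8 against 4 weeks was 0.02, with a 95% interval of -0.22 to 0.26.

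The lipid droplet genes moved in different directions. Plin5, a perilipin that ties droplets to mitochondria in oxidative tissue, had 9.31 and 11.97 CPM at 4 weeks, 7.92 and 9.25 CPM at 6 weeks, and 4.45, 6.83 and 6.25 CPM at 8 weeks. The 8-week libraries were below all others, and its log2 fold change was -0.87 at 8 against 4 weeks (SE 0.18, adjusted p = 0.0077). Without 4-week replicate 2, the highest library, the adjusted p was 0.0988. Mgll, the lipase of the last step of triglyceride breakdown, had 25.5 and 29.99 CPM at 4 weeks, 18.7 and 16.8 CPM at 6 weeks, and 18.7, 21.2 and 15.5 CPM at 8 weeks. The fall was present at 6 weeks: the log2 fold change was -0.65 at 6 against 4 weeks (SE 0.15, adjusted p = 0.0272), -0.59 at 8 against 4 weeks (SE 0.13, adjusted p = 0.0119) and 0.06 at 8 against 6 weeks (adjusted p = 0.909). Without 4-week replicate 2 the adjusted p at 8 against 4 weeks was 0.138.

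Pnpla2, the lipase ATGL that starts triglyceride breakdown, was the droplet gene with the highest level per kb. It had 22.4 and 17.9 CPM at 4 weeks, 38.8 and 28.5 CPM at 6 weeks, and 22.4, 28.8 and 32.7 CPM at 8 weeks. The 6-week libraries lay above the 4-week ones, and the 8-week libraries spanned both. Lipe, the hormone-sensitive lipase, had 8.38 and 7.54 CPM at 4 weeks, 9.44 and 8.44 CPM at 6 weeks, and 11.4, 12.8 and 7.31 CPM at 8 weeks. It did not pass the test at 8 against 4 weeks (log2 fold change 0.40, adjusted p = 0.179), but without 8-week replicate 3 the adjusted p was 0.0097. Markers of fat cells were also lowest in replicate 3 within the 8-week group, though highest in replicate 1, where Lipe was highest in replicate 2: the 8 adipocyte markers summed to 96.9, 72.5 and 33.1 CPM there, against 48.3 and 47.2 CPM at 4 weeks, and Adipoq, the adipocyte hormone adiponectin, had 20.9, 13.1 and 5.29 CPM against 8.94 and 7.52 CPM. No adipocyte marker was at 0, and 1 of 8 (Lep) was called higher at 8 against 4 weeks, beside 9.53% of all genes tested. The part of fat cells in the Lipe values was not tested. Plin2, a droplet coat protein of many tissues, was 14.3 to 18.5 CPM in all libraries.

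In the carnitine shuttle and its control no gene was called in any comparison. Cpt2, the inner-membrane transferase and the most abundant of the 4 per kb, had 26.9 and 29.4 CPM at 4 weeks, 29.7 and 27.4 CPM at 6 weeks, and 22.8, 26.1 and 24.99 CPM at 8 weeks. The 8-week libraries lay below the others, with a log2 fold change of -0.19 at 8 against 4 weeks (95% interval -0.42 to 0.03). Mlycd, which breaks down malonyl-CoA, the inhibitor of the shuttle, had -0.18 in the same comparison. Cpt1a, the liver form of the first transferase, was 7.95 to 13.3 CPM and had -0.23. Cpt1b reached 0.63 at 6 against 4 weeks (adjusted p = 0.179), at the low counts given above.

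In the beta-oxidation spiral 4 of 9 genes were lower at 8 against 4 weeks, beside 8.95% of all genes tested. None was higher, and all 9 log2 fold changes were negative (-0.56 to -0.08, median -0.31). The first step is catalysed by dehydrogenases that differ in chain length. Acadvl, for very long chains, had 153 and 157 CPM at 4 weeks, 146 and 146 CPM at 6 weeks, and 108, 128 and 113 CPM at 8 weeks, a log2 fold change of -0.41 at 8 against 4 weeks (SE 0.10, adjusted p = 0.0168). The 3 ages did not overlap. Acadl, for long chains, had 56.8 and 64.6, then 55.5 and 52.5, then 41.9, 50.2 and 45.0 CPM at 4, 6 and 8 weeks, with -0.41 in the same comparison (SE 0.11, adjusted p = 0.0236). Neither call held without 4-week replicate 1 (adjusted p = 0.0777 for Acadvl and 0.0502 for Acadl), 4-week replicate 2 (0.122 for Acadvl and 0.204 for Acadl) or 8-week replicate 1 (0.0543 for Acadvl and 0.0708 for Acadl). Acads, for short chains, had 24.9 and 24.7 CPM at 4 weeks, 22.2 and 20.8 CPM at 6 weeks, and 16.8, 17.8 and 16.2 CPM at 8 weeks. The 3 ages did not overlap here either, and its log2 fold change was -0.55 (SE 0.09, adjusted p = 0.0031). Acadm, for medium chains, was an exception: it had 123 and 124 CPM at 4 weeks, 124 and 130 CPM at 6 weeks and 109, 129 and 108 CPM at 8 weeks. Its log2 fold change was -0.10, with a 95% interval of -0.33 to 0.13.

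The later steps of the spiral also had negative values at 8 against 4 weeks, of which only that of the thiolase passed the test. Acaa2, the mitochondrial thiolase of the last step, had 75.1 and 83.1 CPM at 4 weeks, 65.5 and 69.9 CPM at 6 weeks, and 49.4, 62.0 and 49.9 CPM at 8 weeks. The ages did not overlap, and the log2 fold change at 8 against 4 weeks was -0.56 (SE 0.12, adjusted p = 0.0083). Without 4-week replicate 2 the adjusted p was 0.0941. Hadha and Hadhb encode both subunits of the trifunctional protein, which performs the steps after the first on long chains. The genes lie head to head on chromosome 5 with 85 bases between them. At 8 against 4 weeks the log2 fold change was -0.31 for Hadha (adjusted p = 0.0818) and -0.26 for Hadhb (adjusted p = 0.0779). At 6 against 4 weeks it was -0.18 for Hadha and 0.02 for Hadhb, and at 8 against 6 weeks -0.12 for Hadha and -0.28 for Hadhb, none of them called. Both were called at 8 against 4 weeks without 8-week replicate 2 (adjusted p = 0.0284 and 0.0427). The ratio of Hadha to Hadhb per kb of exon was 1.49 at 4 weeks, 1.29 at 6 weeks and 1.44 at 8 weeks. Hadh, for short chains, had -0.23 (adjusted p = 0.141), and Echs1, the enoyl-CoA hydratase, -0.08 with overlapping libraries.

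The 3 auxiliary enzymes prepare unsaturated fatty acids for the spiral. All 3 had every 8-week library below every 4-week library, beside 25.1% of all genes tested. Eci2 had 33.4 and 36.5 CPM at 4 weeks, 31.99 and 33.3 CPM at 6 weeks, and 26.0, 30.8 and 25.9 CPM at 8 weeks, a log2 fold change of -0.34 (SE 0.11, adjusted p = 0.0469). That call was the weakest of the 10 and was held in 5 of its 16 alternatives. Decr1, the dienoyl-CoA reductase and the most abundant of the 3 per kb, had 64.3 and 78.8 CPM at 4 weeks, 68.2 and 67.3 CPM at 6 weeks, and 56.8, 59.4 and 59.6 CPM at 8 weeks, with -0.29 (adjusted p = 0.0788). Eci1 had -0.27 (adjusted p = 0.147), and its lowest 4-week library had 30.72 CPM, against 30.66 CPM in its highest 8-week library.

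Electron transfer and uncoupling showed no call. Etfa, the alpha subunit of the flavoprotein that takes electrons from the dehydrogenases, had 31.6 and 35.4 CPM at 4 weeks, 40.0 and 36.8 CPM at 6 weeks and 29.7, 33.3 and 34.9 CPM at 8 weeks. The log2 fold change at 8 against 4 weeks was -0.04, with a 95% interval of -0.28 to 0.20. Etfb had -0.11 and Etfdh, which hands the electrons to ubiquinone, -0.18. Ucp3, the muscle uncoupling protein, whose level is known to rise with circulating fatty acids, varied within ages: it had 40.4 and 49.5 CPM at 4 weeks, 32.5 and 51.3 CPM at 6 weeks, and 26.1, 42.7 and 41.1 CPM at 8 weeks. All its ages overlapped, and its log2 fold change of -0.30 had an SE of 0.22 (adjusted p = 0.380).

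**Figure D3:**
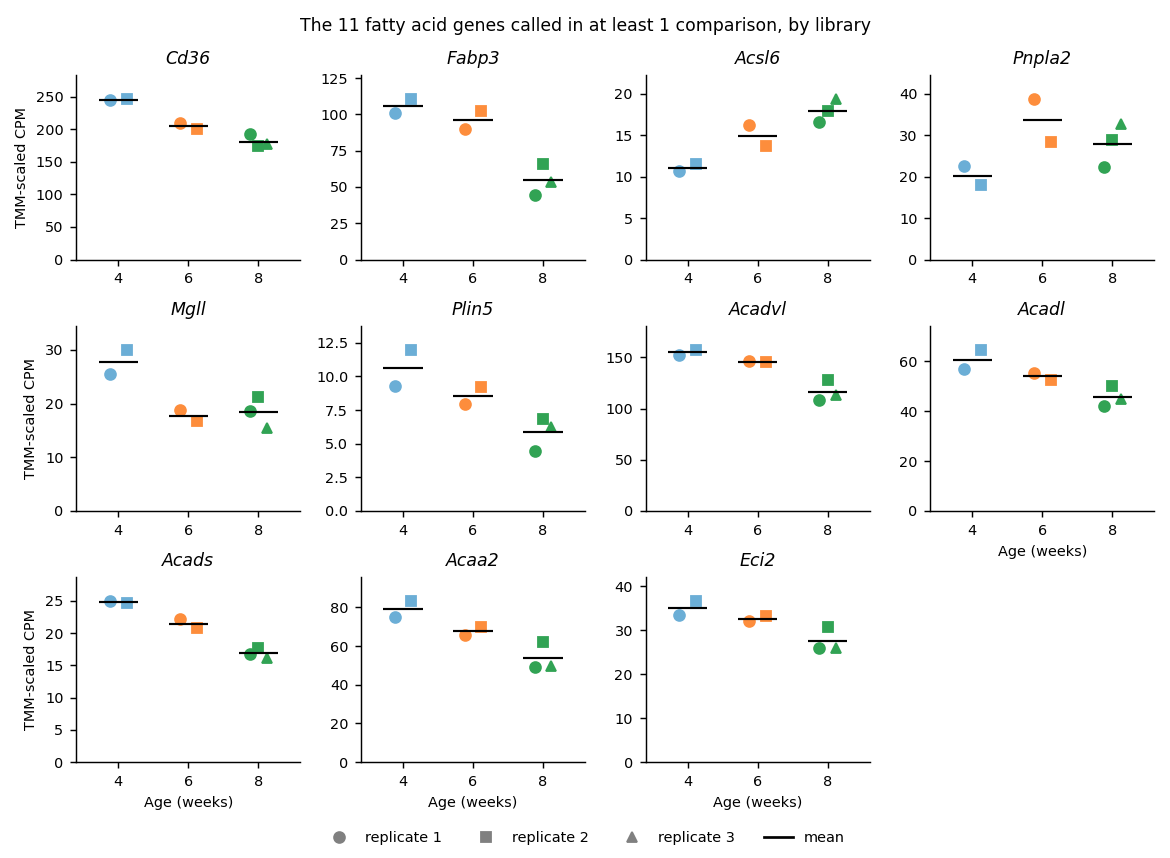
TMM-scaled CPM in each library for the 11 genes called in at least 1 comparison, by age in weeks, with replicates as circles, squares and triangles and the mean as a bar. Fabp3 lay at 44.3 to 66.1 CPM at 8 weeks and at 101 and 111 CPM at 4 weeks, and Acsl6 at 16.6 to 19.4 CPM at 8 weeks and at 10.6 and 11.5 CPM at 4 weeks.

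The genes not called were not shown to be constant. At 8 against 4 weeks, 18 of the 22 genes without a call had a 95% interval that stayed within a change of 1.5-fold either way, and all 22 stayed within 2-fold. The standard errors ran between 0.09 and 0.25 on the log2 scale, the largest for Cpt1b. Every 8-week library was below every 4-week library for 17 of the 32 genes, or 53.1%, beside 25.1% of all genes tested.

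Between 4 and 6 weeks the 32 genes were called about as often as all genes tested. Pnpla2 was higher at 6 weeks (log2 fold change 0.73, SE 0.19, adjusted p = 0.0438) and Mgll lower, so the first and the last lipase of triglyceride breakdown were called in opposite directions. Hence 1 of 32 genes was higher, beside 3.15% of all genes tested, and 1 lower, beside 3.76%, with 6.9% of all genes called in either direction. The median log2 fold change was -0.09, against -0.01 over all genes, and 20 of 32 values were negative. Without 4-week replicate 2 the median was 0.01. Both calls were lost when 4-week replicate 1, 4-week replicate 2 or 6-week replicate 1 was left out. The call of Mgll was also lost without 6-week replicate 2 (adjusted p = 0.149), and that of Pnpla2 without 8-week replicate 2 (adjusted p = 0.0574). For 14 genes (43.8%) both 6-week libraries were below both 4-week libraries, beside 29.8% of all genes tested. Of the 30 genes not called, 22 had intervals within 1.5-fold.

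The comparison of 8 with 6 weeks gave 0 calls among the 32 genes with edgeR. DESeq2 and the other alternatives called Fabp3 or none. Without 8-week replicate 2, Fabp3 was called (-0.99, adjusted p = 0.0139). Few genes were called at all: 0.187% of all genes tested, 0.0334% higher and 0.154% lower. The median log2 fold change of the 32 genes was -0.18, against 0.02 over all genes. All 9 spiral genes were negative, by 0.10 to 0.34. For 15 genes (46.9%) every 8-week library was below both 6-week libraries, beside 13.6% of all genes tested. Besides Fabp3, the largest values were -0.56 for Plin5 (adjusted p = 0.264) and -0.55 for Cpt1b (adjusted p = 0.399). Among the spiral genes Acads had -0.21 at 6 against 4 weeks and -0.34 at 8 against 6 weeks, Acaa2 -0.22 and -0.33, and Acadvl -0.09 and -0.33. These comparisons share the 6-week libraries, and none of the 6 values passed the test.

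Libraries of 1 age differed in a way that many of the genes shared. Relative to each gene's mean over the 7 libraries, the median log2 level of the 32 genes was 0.05 and 0.16 at 4 weeks, 0.04 and 0.04 at 6 weeks, and -0.19, 0.04 and -0.18 at 8 weeks. The 4-week replicate 2 was the highest of the 7 libraries for 17 genes, and 8-week replicates 1 and 3 were the lowest for 14 and 9. Of the 9 genes lower at 8 against 4 weeks, 8 were highest within the 8-week group in replicate 2. Cd36 was the exception, at 192, 174 and 177 CPM.

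**Figure D4:**
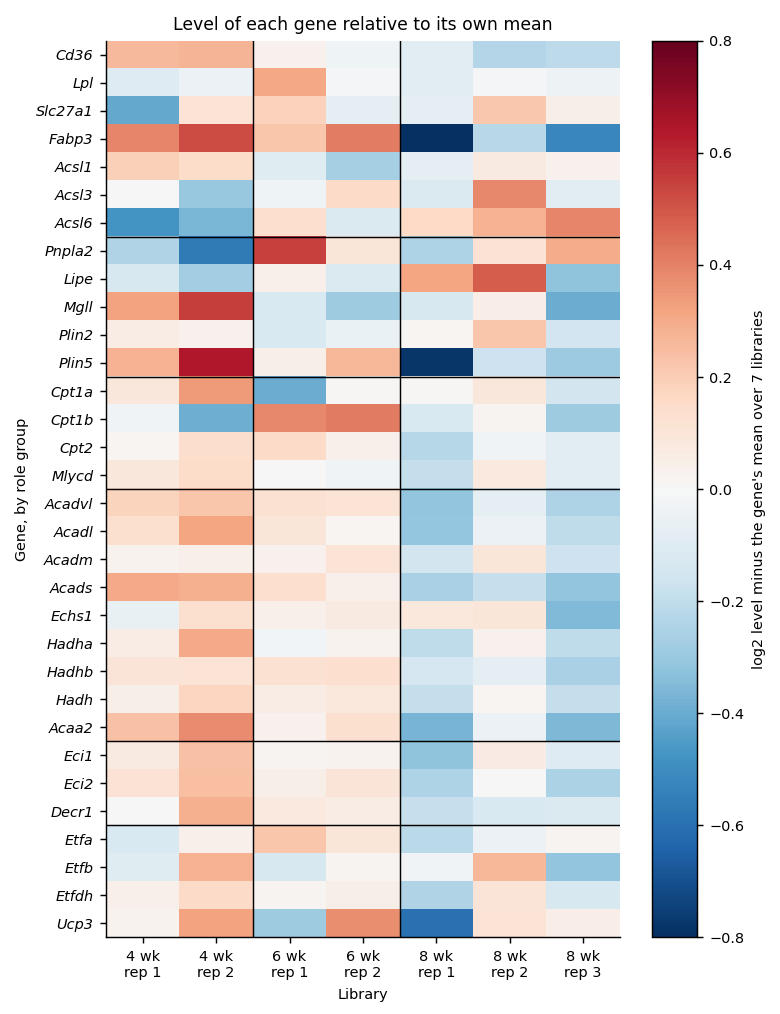
Log2 level of each of the 32 genes in each library minus the gene's mean over the 7 libraries, from blue (lower) to red (higher), with genes grouped by role. The medians over genes were 0.05 and 0.16 at 4 weeks, 0.04 and 0.04 at 6 weeks, and -0.19, 0.04 and -0.18 at 8 weeks, where replicate 2 (middle column) was paler than its neighbours.

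Markers of slow oxidative fibers moved with the same libraries. Of 10 such genes, 3 were lower at 8 against 4 weeks, beside 8.95% of all genes tested. They were Casq2, the calcium-binding protein of slow and cardiac muscle (-1.68, adjusted p = 0.0002), and the slow troponins Tnni1 (-1.02, adjusted p = 0.0171) and Tnnt1 (-0.81, adjusted p = 0.0326). At 6 against 4 weeks Casq2 was the 1 of 10 called lower (-0.99, adjusted p = 0.0124), beside 3.76% of all genes tested. Tnni1 had 18.8 and 23.9 CPM at 4 weeks, 19.2 and 23.7 CPM at 6 weeks, and 7.84, 15.8 and 8.18 CPM at 8 weeks, where replicate 2 again lay highest. The list's summed level was 303 to 501 CPM at 8 weeks, against 479 to 604 CPM at 4 weeks, and no marker was at 0. Its part in the values of Fabp3, Plin5 and the spiral genes was not tested. With replicate 2 as the only 8-week library, the log2 fold change against 4 weeks was -0.68 for Fabp3, -0.64 for Plin5 and -0.48 for Acads. It was -0.35 for Acaa2, -0.27 for Acadvl and -0.27 for Acadl. These values rest on a single 8-week mouse.

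Endothelial markers were lower at both later ages. At 6 against 4 weeks 5 of 9 were called lower, led by Pecam1 (-0.79, adjusted p = 0.0093), beside 3.76% of all genes tested. At 8 against 4 weeks 6 of 9 were, led by Emcn (-1.07, adjusted p = 0.0023), beside 8.95%. Their summed level was 173 to 209 CPM at 8 weeks and 173 to 175 CPM at 6 weeks, against 246 to 276 CPM at 4 weeks, and none was at 0. The other genes of uptake that fell at 8 against 4 weeks included Fabp4 (-0.59, adjusted p = 0.0314) and Gpihbp1 (-0.52, adjusted p = 0.0435). Gpihbp1 anchors lipoprotein lipase in capillaries and is itself among the 6 endothelial markers called lower. The share of endothelium in the Cd36 values was not tested. Macrophage markers were called lower in 2 of 7 cases and red blood cell markers in 5 of 5 at 8 against 4 weeks. Of 13 immediate early genes, 2 (Atf3 and Egr2) were also lower. All 3 counts stand beside the 8.95% of all genes tested. The median relative log2 level of the immediate early list was -0.81, 0.31 and -1.52 at 8 weeks.

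**Figure D5:**
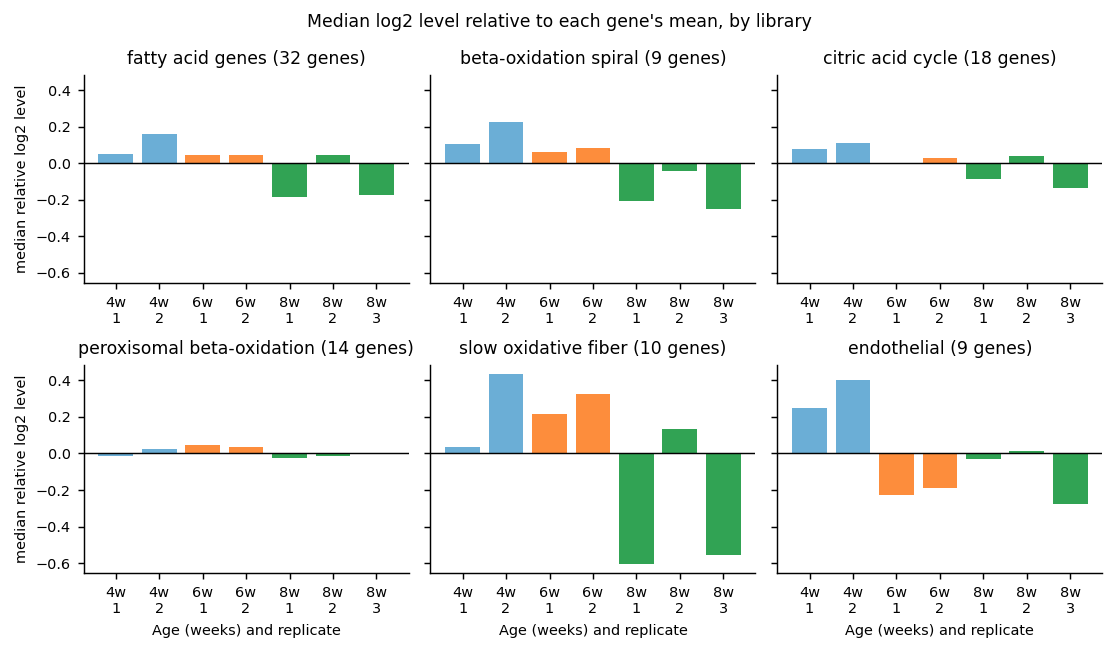
Median log2 level of 6 gene lists in each library (age in weeks above the replicate number), relative to each gene's mean over the 7 libraries. The 32 fatty acid genes, the spiral, the citric acid cycle and the slow fiber markers had their lowest bars in 8-week replicates 1 and 3 (-0.60 and -0.56 for slow fiber markers), while peroxisomal genes stayed within 0.04 of 0.

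Genes of neighbouring pathways were counted in the same way. The citric acid cycle, which burns the acetyl-CoA made by the spiral, had 3 of 18 genes lower at 8 against 4 weeks (Sucla2, Sdhd and Idh3g) and 1 higher (Ogdh, at 0.42, adjusted p = 0.0420), with a median of -0.18. Over all genes tested, 8.95% were called lower and 9.53% higher. In peroxisomes, where very long chains are shortened, the 14 tested of 16 genes had a median of 0.00 at 8 against 4 weeks. The reductase Decr2 was lower (-0.62, adjusted p = 0.0404), with 2.52 and 2.45 CPM at 4 weeks, 2.38 and 2.28 CPM at 6 weeks, and 1.56, 1.45 and 1.86 CPM at 8 weeks. Whether these lists differed from the 32 genes was not tested.

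Of 15 other mitochondrial fatty acid genes, Acacb alone was called. It encodes the acetyl-CoA carboxylase that makes malonyl-CoA, the inhibitor of the carnitine shuttle, and was higher at 6 against 4 weeks (0.74, adjusted p = 0.0469) and at 8 against 4 weeks (0.90, adjusted p = 0.0076). It had 84.2 and 77.0 CPM at 4 weeks, 155 and 115 CPM at 6 weeks, and 116, 148 and 186 CPM at 8 weeks. Thus 1 of the 15 was higher at 6 and at 8 against 4 weeks, beside 3.15% and 9.53% of all genes tested. Slc25a20, the carnitine-acylcarnitine carrier, was not called (-0.20 at 8 against 4 weeks, adjusted p = 0.327). Of 13 other genes of uptake and activation, 1 was higher and 4 were lower at 8 against 4 weeks, beside 9.53% and 8.95% of all genes tested. Vldlr, a lipoprotein receptor, was higher at 6 and at 8 against 4 weeks (0.79 and 1.32), and Fabp5 was lower in both (-1.12 and -1.36). Dbi, the acyl-CoA binding protein, was lower at 8 weeks (-0.42, adjusted p = 0.0266). Of 13 other droplet genes, Lpin1, a phosphatase of triglyceride synthesis, was higher at 8 against 4 weeks (0.85, adjusted p = 0.0056), and G0s2, the inhibitor of the lipase made by Pnpla2, was lower (-0.86, adjusted p = 0.0033). Thus 1 of the 13 was higher and 1 lower, beside 9.53% and 8.95% of all genes tested.

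Genes known to respond to fasting differed between libraries of 1 age. The median relative log2 level of the 12 genes was -0.11 and 0.35 at 4 weeks, 0.03 and -0.04 at 6 weeks, and -0.16, 0.35 and -0.17 at 8 weeks. It was thus highest in 4-week replicate 2 and 8-week replicate 2, the libraries of their ages in which the median of the 32 genes was highest too. Its part in the values of the 32 genes was not tested. Pdk4, the kinase that shuts off pyruvate oxidation when fat is burned, had 148 and 217 CPM at 4 weeks, 132 and 159 CPM at 6 weeks, and 133, 209 and 146 CPM at 8 weeks. The ages overlapped, and it was not called (-0.17 at 8 against 4 weeks, adjusted p = 0.602). Of the 12 genes, 2 (Fbxo32 and Lpin1) were higher at 8 against 4 weeks and 2 (Ddit4 and Ucp2) lower. Over all genes tested, 9.53% were higher and 8.95% lower. Fbxo32, a ubiquitin ligase of muscle atrophy, had 51.1 and 56.9 CPM at 4 weeks, 128 and 84.7 CPM at 6 weeks, and 197, 181 and 184 CPM at 8 weeks. Ddit4, an inhibitor of mTOR signaling, was higher at 6 against 4 weeks (1.02) and lower at 8 against 4 weeks (-1.91).

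Fatty acid genes of muscle are known targets of nuclear receptors: the PPAR proteins bind, with RXR, repeats of the half-site AGGTCA, and estrogen-related receptors bind the extended half-site TCAAGGTCA. RefSeq promoters (GRCm38.p6, 250 bases before to 50 after a start) matched 28 of the 32 genes with 36 start sites, and no entry was found for Lpl, Cpt1b, Acaa2 and Decr1. Both strands were searched, and each extended half-site also holds a half-site. The half-site was present for 9 of the 28 genes (32.1%), against 18.1% of all 27025 genes with a promoter. It was found for 4 of the 9 genes called at 8 against 4 weeks that had an entry. Of the 19 not called, 5 held it: Cpt1a, Ucp3, Plin2, Acadm and Echs1. The extended half-site was present in Acsl6 alone, against 0.466% of all genes. The direct repeat with 1 base between its half-sites, with up to 1 mismatch, was found in none of the 28 and in 0.644% of all genes. A match is a description of the letters and not evidence of binding. The windows of the called genes are shown with those of Cpt1a and Ucp3, 2 of the 5 uncalled genes with a match. They are written 5′ to 3′ on the gene's strand, with the half-site, or its complement TGACCT, in capitals (for Acsl6 at position -167 the extended match).
Acsl6, position -189, chr11:54303627-54303648, plus strand: tcttcccgTGACCTtgtgtggc
Acsl6, position -167, chr11:54303649-54303673, plus strand: ctccaaccTGACCTTGAgcattctt
Cd36, position -228, chr5:17836111-17836132, minus strand: gcactttaTGACCTgagatttt
Plin5, position -170, chr17:56117705-56117726, minus strand: ctagtctgAGGTCAgccatggt
Plin5, position 13, chr17:56117272-56117293, minus strand: gagccctgAGGTCAgcgtccct
Acadvl, position -87, chr11:70015502-70015523, minus strand: atcaccctAGGTCAggtagaat
Cpt1a, position -94, chr19:3323199-3323220, plus strand: ttccttacTGACCTcctccccg
Ucp3, position -149, chr7:100472834-100472855, plus strand: agagccccAGGTCAcggaagct
Ucp3, position -44, chr7:100472939-100472960, plus strand: taggtttcAGGTCAgctggtgc

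Positions count from each start site, and the 2 entries of Plin5 belong to 2 start sites. Acsl6, the gene that rose, and Cd36, Plin5 and Acadvl, genes that fell, thus all hold the half-site on one strand or the other.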

How the data were processed

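RNA was isolated from whole gastrocnemius, and libraries were made with a kit that marks strand. Per the study's methods, the authors trimmed reads with Trimmomatic, mapped them to GRCm38 with STAR and counted reads on exons per gene name, by strand, with featureCounts. The deposited values used here are raw counts per gene, with no normalization. Sheets of normalized values and of the authors' own comparisons, which hold fold changes and p-values, were not used. The 26 symbols turned into dates by a spreadsheet took 0.0532% of the counts.

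Counts were filtered (filterByExpr, minimum count 10), TMM-scaled and tested with edgeR 4.0.16 in R 4.3.3 (glmQLFit, glmQLFTest), with all 7 libraries in 1 model, no covariates and Benjamini-Hochberg adjustment over 14976 genes. Standard errors are the log2 fold change over the square root of F. The code was tested on simulated data. Precision rests on 4 residual degrees of freedom plus 7.30 from the prior, and with 26 to 9263 counts per gene and library, counting error is largest for Cpt1b. No 2 libraries held identical values, and no source says whether mice of an age shared a litter, so p-values measure the spread between these mice only. Exon lengths and overlaps came from GENCODE M21.

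All 32 genes are named. Values in every library are given for genes called in any comparison, the gene with the highest level per kb in each role group, Cpt1b and Ucp3, and from the other lists up to 4 genes each way with the smallest p, Pdk4 and Slc25a20. The genes, lists and tests were chosen with earlier results of these data known. Alternatives were other scalings, DESeq2 1.42.0, limma-voom (limma 3.58.1), no filter, 2 ages only, a replicate block and each library left out. Figures used matplotlib. A withheld item is not reported here.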

Additional observations from a re-analysis of the deposited data

How the results depend on the processing

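The counts of genes called were 2 at 6 against 4 weeks, 10 at 8 against 4 weeks and 0 at 8 against 6 weeks. With library totals in place of TMM they were 0, 11 and 1. That scaling moved the median log2 fold change of all genes to -0.20 at 8 against 4 weeks and -0.17 at 8 against 6 weeks, and 12.9% of all genes were then called lower at 8 against 4 weeks, against 8.95%. The median of the 32 genes was then -0.39 and -0.36, so that it lay about as far below the median of all genes as with TMM. With only the 2 ages compared the count at 6 against 4 weeks was 4. The count at 8 against 6 weeks was 1, always Fabp3, with the 10 genes of most counts left out, with DESeq2, with no filter and with the replicate block. Leaving out 1 library at a time gave 0 to 3 calls at 6 against 4 weeks, 3 to 14 at 8 against 4 weeks and 0 to 1 at 8 against 6 weeks, and with 8-week replicates 1 and 3 both left out the count at 8 against 4 weeks was 6. Leaving out a library leaves 1 mouse in an age of 2, and its spread is then taken from the other ages. Why single libraries moved the counts was not tested. Correlations of deviations from the age means lay between -0.09 and 0.09, for libraries with the same replicate number and for others. In an age of 2 these deviations mirror each other, so the correlations cannot exclude a shared litter or batch. With the replicate block the counts were 3, 11 and 1. The share of all genes called is not given beside every setting, and a count alone does not set the 32 genes apart from all genes. Of 1504 recomputed values of single genes, 69 had the other sign, none of them called under either setting, and all had values within 0.20 of 0 on the log2 scale in the reported fit. Depth limits Cpt1b most, and 2 or 3 mice per age limit the other genes.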
